A study of Mus musculus with 4 samples.

Results

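Outer supporting cell genes are genes used to recognise pillar cells and Deiters' cells. These are the supporting cells around and beneath the outer hair cells of the organ of Corti. Added to the list are genes that the study names as higher after Tbx2 loss on arrays of an earlier stage. Of the genes below, these are Ctgf, Fgfr3, Lgr6, Rnf182 and Ptpn5. The 10 genes were chosen by name, by a rule that uses no value measured here, though with earlier results of these data known. They were Ctgf, Prox1, Fgfr3, Ngfr, Lgr5, Lgr6, Cdh1, S100a1, Rnf182 and Ptpn5, out of 27487 gene names on the array. The array carries 17 probes for them among 39429, and 5 of the genes have 1 probe while 5 have several. Of the 17 probes, 16 were bright enough to be tested and each of the 10 genes kept at least 1 of them.

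RNA came from organs of Corti, the sensory epithelium of the cochlea, dissected from the basal part of the cochlear duct of mouse embryos of the NMRI strain at E18.5, where E stands for embryonic day. Sox2-Tbx2LOF embryos carried Sox2creERT2, a tamoxifen-dependent Cre recombinase in the Sox2 gene, together with floxed Tbx2 (genotype Tbx2 fl/fl). Controls carried at least 1 floxed Tbx2 allele with the other allele not determined on the labels (Tbx2(fl/n.d.)) and, by the methods, lacked the recombinase, so that the groups differ in the Sox2creERT2 allele as well as in Tbx2. All dams received 4 mg tamoxifen at E16.5. The study asked which genes depend on Tbx2 in hair and supporting cells that have begun to differentiate. Each of 4 dual-colour arrays paired a Sox2-Tbx2LOF pool with a control pool, with female pools on arrays 1 and 2 and male pools on arrays 3 and 4. Dyes were swapped within each sex, and Sox2-Tbx2LOF RNA carried Cy3 on arrays 1 and 3 but Cy5 on the other two. Every pool combined the organs of several embryos. Recombination was limited to cells with Sox2 activity, which are not all cells of the dissected tissue. By the study, hair cells as well as supporting cells still express SOX2 at E16.5, and both lost TBX2 where they had recombined.

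Pillar and Deiters' cells arise from the same SOX2-positive progenitors as hair cells and give the outer part of the organ its mechanical frame. PROX1 is a homeodomain transcription factor found in both cell types, and signalling through FGFR3 is needed for pillar cells to form. LGR5 and LGR6 are receptors for R-spondins that raise the response to WNT ligands, and cells with LGR5 in the young cochlea can act as progenitors of hair cells. TBX2 is a T-box transcription factor of the inner hair cells and inner supporting cells.

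The probes behind the results below are given by the first 30 of their 60 bases, read 5′ to 3′ from the array files, because each level and ratio is the signal of 1 such oligonucleotide and not of a whole transcript. The Ctgf probe gave the only ratio of these genes that passed the test, the Rnf182 and Prox1 probes gave the next ratios in order of p, and the S100a1 probes are a pair of separate readings of the same transcript.
Ctgf A_51_P157042: gtcaaatccctgttggtgaacaaatggcct
Rnf182 A_51_P500661: tggctacgttcaaatgatgtatgtatgatt
Prox1 A_55_P2048751: acgtttgttttcttagctggatttttgtgt
S100a1 A_55_P1979650: gggcacaagagtggcagtccagatctgcca
S100a1 A_55_P1979645: aaggaactggatgaaaacggagatggggaa
On mouse build mm9 the whole probes lie at chr10:24318281-24318340 on the plus strand for Ctgf, at chr13:43764119-43764178 on the plus strand for Rnf182 and at chr1:191945785-191945844 on the minus strand for Prox1. The S100a1 probes lie at chr3:90314959-90315018 and chr3:90315191-90315250, both on the minus strand, and do not overlap. The array files place them at positions 2194, 1261, 3948, 552 and 320 of their transcripts in the order of the list above, and do not say which exon or untranslated region a probe falls in.

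The labels were checked first. On 4 of 4 arrays the Tbx2 ratio was below 0, at −0.06, −0.24, −0.02 and −0.30 on the log2 scale, and the mean of −0.15 ± 0.14 (SD, n = 4 pools per genotype) did not pass the test in limma (adjusted p = 0.313). Whether this probe lies in the floxed part of Tbx2 is not given in the sources used here. Sox2, which carries the recombinase, had a ratio of 0.23 ± 0.09 (SD, n = 4; adjusted p = 0.0872, limma). Xist lay between 11.81 and 12.33 in female pools and between 6.04 and 6.13 in male pools, so the labelled sexes were borne out. Between 70.4% and 75.2% of probe spots were well above background per channel, and no spot was saturated. Ratios of arrays with the same dye orientation correlated across tested probes at r = 0.435 and 0.461, whereas those of opposite orientation, turned to Sox2-Tbx2LOF over control, correlated at −0.28 to −0.09. A dye term was therefore fitted for each probe, and means over the 4 arrays balance the orientations.

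Of the 10 outer supporting cell genes, Ctgf rose in Sox2-Tbx2LOF pools and the other 9 did not pass the test. Ctgf, which encodes a matricellular growth factor, rose to 1.31-fold, and was the only 1 of the 10 genes to pass an adjusted p under 0.05 in limma, where 1.16% of the 20044 tested genes did and 0.524% did so by rising. No gene of the 10 was called changed at this p and a fold of at least 1.5, against 0.284% of all genes. Without adjustment 4 of the 10 genes had p under 0.05, namely Ctgf, Rnf182, Prox1 and S100a1, against 7.88% of all genes, and the ratios of all 4 were above 0, against 3.87% of all genes with such a p and a ratio above 0. The means of 6 genes were above 0 and those of 4 below, with a median of 0.07 on the log2 scale, while 51.8% of all genes were above 0 with a median of 0.0021. Irrespective of sign, the median size of the log2 ratio was 0.11 for the 10 genes and 0.034 for all genes. In whole dissected tissue, a change in the number of cells of a type and a change in RNA per cell cannot be told apart.

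**Figure D1:**
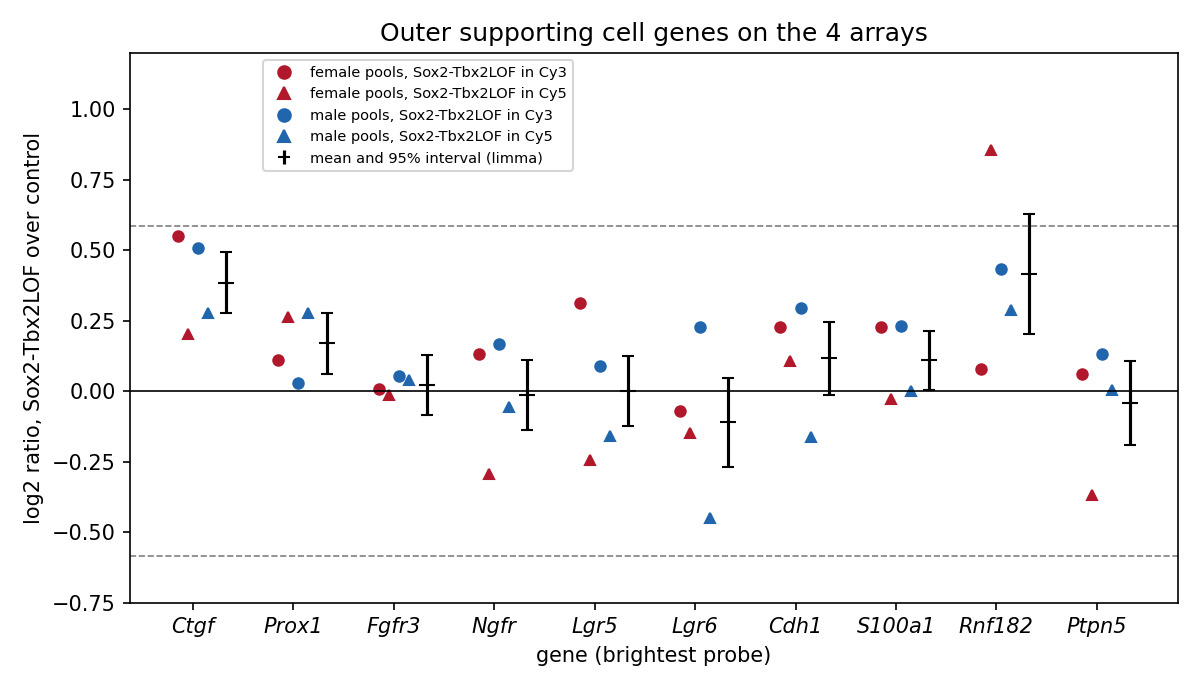
Log2 ratio of Sox2-Tbx2LOF over control (y axis) for the brightest probe of each of the 10 genes (x axis), with 1 point per array, coloured by sex and shaped by the dye of the Sox2-Tbx2LOF pool; black marks are the limma mean and 95% interval, and dashed lines mark a fold of 1.5. The points of Ctgf, Rnf182 and Prox1 lie above 0 on 4 of 4 arrays, and those of Lgr5, Ngfr and Cdh1 lie on either side of 0.

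Ctgf was measured as a log2 channel level, the brightness of a pool's channel after normalization, in all 8 pools. The Sox2-Tbx2LOF pools stood at 15.08, 14.95, 15.13 and 14.94 and the control pools at 14.53, 14.75, 14.62 and 14.67 on arrays 1 to 4. The groups did not overlap, as every Sox2-Tbx2LOF pool was above every control pool. The ratios within the arrays were 0.55, 0.20, 0.51 and 0.28, with a mean of 0.38 ± 0.17 (SD, n = 4) and a 95% interval of 0.28 to 0.49 (adjusted p = 0.00657, limma). The ratio was larger on the arrays with the Sox2-Tbx2LOF pool in Cy3, where it averaged 0.53, than on those with it in Cy5, where it averaged 0.24. Leaving out any single array kept the mean between 0.37 and 0.40 with an adjusted p of 0.0029 to 0.028. Without the dye term the adjusted p was 0.125, and on the authors' series matrix it was 0.31, so the test was not passed there at similar means of 0.38 and 0.37.

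The pattern of Ctgf over the 8 pools, after removal of the dye effect, was most like that of Isl1 (Pearson r = 0.996), Crhr1 (r = 0.993) and Aqp8 (r = 0.992), for a LIM-homeodomain transcription factor, the receptor of corticotropin-releasing hormone and a water channel. Their own ratios were 0.28 (adjusted p = 0.0321), 0.50 (adjusted p = 0.00136) and 0.89 (adjusted p = 4.23e-05) by limma. The 8 pools share 4 arrays and fall into 2 genotypes, and these genes were taken from all tested genes for their likeness to Ctgf. Of the CCN family, to which Ctgf belongs, 4 of 5 other members were tested and none passed the adjusted p. In limma 2 of the 4 had an unadjusted p under 0.05, against 7.88% of all genes. Cyr61 was the lowest at −0.24 (adjusted p = 0.127) and Wisp1 the highest at 0.25 (adjusted p = 0.154). The study's in situ hybridization, in embryos given tamoxifen earlier, still showed Ctgf at E18.5 in the greater epithelial ridge, medial to the organ of Corti. CTGF is also made by connective tissue. Of 6 mesenchyme markers, 5 had ratios above 0 with a median of 0.12, from Tbx18 at −0.05 to Col1a1 at 0.34. In limma none had an adjusted p under 0.05 and 3 had an unadjusted one under 0.05, against 7.88% of all genes. The mean log2 level of the mesenchyme list lay between 13.08 and 13.34 in Sox2-Tbx2LOF pools and between 12.91 and 13.23 in control pools. The part of the ridge or of mesenchyme in the Ctgf ratio was not tested.

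Rnf182, which encodes a RING-finger ubiquitin ligase, had the highest mean ratio of the 10 genes and the least even one. Like Ctgf, it is 1 of the genes that the study lists as higher on the earlier arrays. The study's in situ hybridization placed Rnf182 in outer hair cells of control embryos at E18.5, and the cell type behind its ratio was not tested. Its levels were 10.79, 11.14, 11.15 and 10.78 in Sox2-Tbx2LOF pools against 10.71, 10.28, 10.71 and 10.49 in control pools. These groups did not overlap either, although the lowest Sox2-Tbx2LOF pool, at 10.78, was close to the highest control pool, at 10.71. The ratios of 0.08, 0.86, 0.43 and 0.29 gave a mean of 0.41 ± 0.33 (SD, n = 4), a 95% interval of 0.20 to 0.63 and a fold of 1.33, which did not pass the test (adjusted p = 0.108, limma). The female pools of array 2 gave the large ratio, and without that array the mean was 0.27 (adjusted p = 0.122). Without array 4 the mean was 0.56 and passed (adjusted p = 0.000444). By their brightest probe Ctgf and Rnf182 were 2 of 10 genes whose pools did not overlap, against 2.82% of all genes, or 1.34% counting only genes with the higher pools in Sox2-Tbx2LOF.

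**Figure D2:**
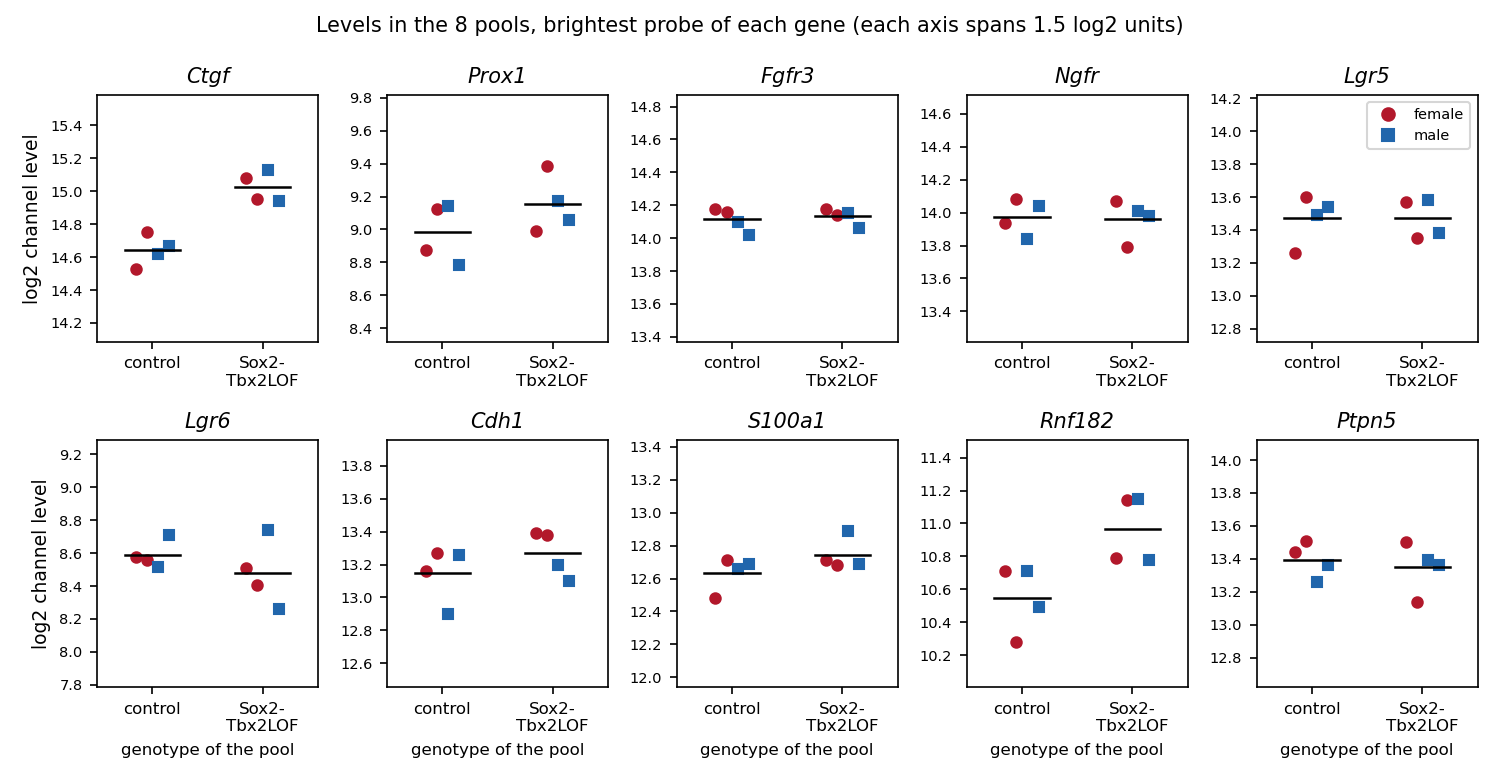
Log2 channel level (y axis) of the brightest probe of each gene in the 4 control and the 4 Sox2-Tbx2LOF pools (x axis); points are pools, circles female and squares male, and black bars are group means. Each y axis spans 1.5 log2 units but starts at its own level, since levels of different probes cannot be compared. The pools of Ctgf and Rnf182 separate by genotype, while those of the other 8 genes overlap.

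Prox1 stood at a log2 level of 8.99, 9.39, 9.17 and 9.06 in Sox2-Tbx2LOF pools and 8.88, 9.12, 9.15 and 8.78 in control pools. The groups overlapped, but the Sox2-Tbx2LOF pool was the higher of the pair on 4 of 4 arrays. The ratios of 0.11, 0.26, 0.03 and 0.28 averaged 0.17 ± 0.12 (SD, n = 4), with a 95% interval of 0.06 to 0.28 and a fold of 1.12 (adjusted p = 0.232, limma). Ctgf, Rnf182 and Prox1 were the 3 genes of 10 whose brightest probe had the same sign on all 4 arrays. Over all genes, 9.33% did so. By immunofluorescence at E18.5, the study found the PROX1-positive supporting cells expanded medially, which RNA of whole tissue cannot locate.

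S100a1 encodes a calcium-binding protein that labels Deiters' cells and inner hair cells. Its brighter probe read 12.71, 12.68, 12.89 and 12.69 in Sox2-Tbx2LOF pools and 12.48, 12.71, 12.66 and 12.69 in control pools, and the groups overlapped. The dimmer probe read 11.68, 11.63, 11.63 and 11.66 against 11.62, 11.52, 11.51 and 11.51, without overlap, though its lowest Sox2-Tbx2LOF pool and highest control pool were 11.63 and 11.62. The mean ratios of 0.11 ± 0.14 and 0.11 ± 0.04 (SD, n = 4) differed by 0.0016, and neither passed the test (adjusted p = 0.666 and 0.691, limma). Both probes bound the change to a fold of at most 1.16 by the upper limit of their 95% intervals.

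Fgfr3, the FGF receptor that marks pillar and Deiters' cells, did not pass the test. The study's in situ hybridization at E18.5, after tamoxifen at the same stage, showed Fgfr3 expanded medially. A ratio of pooled tissue does not show where a transcript lies. The brightest probe read 14.18, 14.14, 14.15 and 14.06 in Sox2-Tbx2LOF pools and 14.18, 14.16, 14.10 and 14.02 in control pools. Its ratio of 0.02 ± 0.03 (SD, n = 4) was the most even of the 10 genes, with a 95% interval from −0.08 to 0.13 that allows folds of 0.943 to 1.09 (adjusted p = 0.9996, limma). A dimmer probe, whose bases are spread over 235 bases of the genome, gave 0.04 ± 0.17 with arrays on either side of 0. The remaining Fgfr3 probe was well above background in 1 of 4 Sox2-Tbx2LOF and 0 of 4 control channels and was not tested.

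Around this receptor, of 14 FGF ligands, other receptors and targets, all tested, 3 fell, 0 rose and the median was −0.16. Ratios of 11 were below 0, and 8 had an unadjusted p under 0.05 in limma. Over all genes, 1.16% passed the adjusted p and 7.88% had such an unadjusted p. Fgf8, a ligand made by inner hair cells, fell by 1.57 (adjusted p = 2.14e-06) and Fgf20, a ligand of the sensory progenitors, fell by 0.82 (adjusted p = 0.00171). Etv4, an ETS factor induced by FGF signalling, fell by 0.27 (adjusted p = 0.0474, limma), and it passed in only 3 of 15 other settings. Its ratios of −0.10, −0.48, 0.02 and −0.53 on arrays 1 to 4 followed the dye orientation. Without the dye term its adjusted p was 0.827 in limma. Etv5, another such factor, was below 0 on 4 of 4 arrays and did not pass (mean −0.24, adjusted p = 0.077, limma). By in situ hybridization at E18.5, the study found both lost or strongly lower in pillar cells. Fgfr1 was the highest at 0.13 (adjusted p = 0.774). Fgf8 and Fgf20 were named by the study from these same arrays, so their direction is not independent evidence.

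Neither Lgr5 nor Lgr6 passed the test. The brightest Lgr5 probe read 13.57, 13.35, 13.58 and 13.38 in Sox2-Tbx2LOF pools and 13.26, 13.60, 13.49 and 13.54 in control pools. Its ratios of 0.31, −0.25, 0.09 and −0.16 followed the dye orientation and averaged −0.0006 ± 0.25 (SD, n = 4), with a 95% interval from −0.13 to 0.12 (adjusted p = 0.9997, limma). A second Lgr5 probe lay near background, at 6.60 to 6.75 in all pools, and gave 0.04 ± 0.08. Lgr6, the pillar cell relative, read 8.51, 8.41, 8.74 and 8.26 against 8.58, 8.56, 8.52 and 8.71. Its probes had the lowest means of the 10 genes, at −0.11 ± 0.28 and −0.10 ± 0.09 (SD, n = 4; adjusted p = 0.9996 and 0.754, limma). The dimmer of them was below 0 on 4 of 4 arrays, and the brighter on 3. The mean of the brighter probe moved to −0.04 without array 1 or array 4 and to −0.19 without array 2 or array 3.

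Among 11 other genes of R-spondin and LGR signalling, 10 were tested, and 0 passed the adjusted p in limma. Of the 10, 2 had an unadjusted p under 0.05, against 7.88% of all genes. The range ran from Znrf3, a ubiquitin ligase that removes WNT receptors, at −0.01 to Rspo1, a ligand of both receptors, at 0.18 (adjusted p = 0.21). The median was 0.02.

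Ngfr encodes the low-affinity neurotrophin receptor, a pillar cell marker that Schwann cells also express. It read 14.07, 13.79, 14.01 and 13.98 in Sox2-Tbx2LOF pools and 13.94, 14.08, 13.84 and 14.04 in control pools. The groups overlapped almost fully, and the ratios of 0.13, −0.30, 0.17 and −0.06 averaged −0.01 ± 0.21 (SD, n = 4) with a 95% interval from −0.14 to 0.11 (adjusted p = 0.9996, limma). The 5 Schwann cell and glia markers had a median ratio of 0.0044, from Foxd3 at −0.05 to Erbb3 at 0.04, with 0 passing in limma and 0 at an unadjusted p under 0.05. Their mean level lay between 12.51 and 12.64 in Sox2-Tbx2LOF pools and between 12.50 and 12.66 in control pools. Of 8 neurotrophins and their other receptors 7 were tested, and Ntf3, a neurotrophin that supports cochlear neurons, fell by 0.33 (adjusted p = 0.026, limma) on 4 of 4 arrays, and passed in 7 of 15 other settings. Ntrk2 was the highest at 0.05.

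Cdh1, the epithelial cadherin of the outer compartment, read 13.39, 13.38, 13.20 and 13.10 in Sox2-Tbx2LOF pools and 13.16, 13.27, 12.90 and 13.26 in control pools. The ratio was above 0 on 3 arrays and at −0.16 on array 4, with a mean of 0.12 ± 0.20 (SD, n = 4) and a 95% interval from −0.01 to 0.25 (adjusted p = 0.825, limma). Without array 2 the mean was 0.049, and without array 4 it was 0.18. Of 7 other cadherin and catenin genes 0 passed in limma and 1 had an unadjusted p under 0.05, against 7.88% of all genes. Those 7 ran from Cdh2, the cadherin of the inner compartment, at −0.05 to Cdh4 at 0.12. By immunofluorescence at E18.5, the study found CDH2 protein strongly lower in the inner compartment and CDH1 protein normal. The ratios here are of RNA from whole dissected tissue.

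Ptpn5 encodes a tyrosine phosphatase and had 3 probes, all tested. The brightest read 13.50, 13.14, 13.39 and 13.36 in Sox2-Tbx2LOF pools and 13.44, 13.51, 13.26 and 13.36 in control pools. Its mean of −0.04 ± 0.22 (SD, n = 4) rested on array 2 at −0.37, and the other arrays were above 0. The other probes gave −0.01 ± 0.07 and −0.01 ± 0.13. For the 5 genes with several tested probes, the means of the probes of a gene lay 0.0016 to 0.0454 apart.

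Across the 10 genes, the 95% interval lay within a fold of 1.5 in either direction for 9, with Rnf182 the exception, as it did for 99.3% of all genes. The median SD between arrays was 0.13 over all genes, and the 10 genes ranged from 0.03 for Fgfr3 to 0.33 for Rnf182. None of the 16 tested probes had a dye term with an adjusted p under 0.05 in limma, compared with 3.71% of all tested probes. Ratios of arrays of opposite orientation correlated at −0.28 to −0.09 over all tested probes. The share of all probes with opposite signs by orientation was not counted. Of the 16 probes, 10 had means of opposite sign in the 2 dye orientations. These were probes of Ngfr, Lgr5, Lgr6, S100a1, Cdh1, Ptpn5 and Fgfr3. For Lgr5 the mean was 0.20 with the Sox2-Tbx2LOF pool in Cy3 and −0.20 with it in Cy5.

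**Figure D3:**
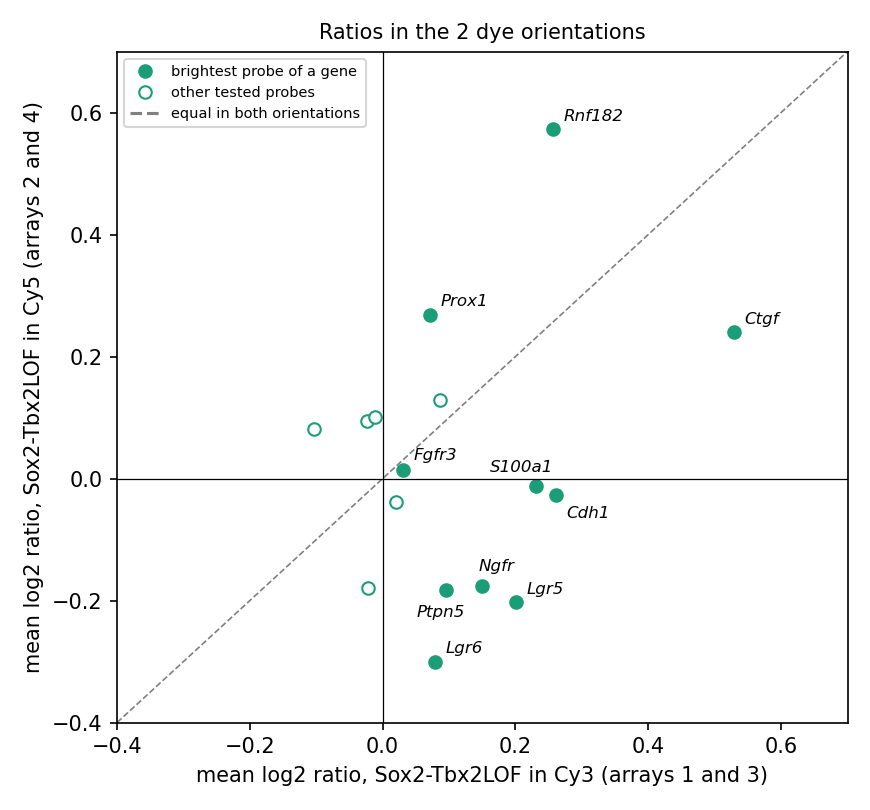
Mean log2 ratio of Sox2-Tbx2LOF over control on the arrays with the Sox2-Tbx2LOF pool in Cy5 (y axis) against that on the arrays with it in Cy3 (x axis), for the 16 tested probes; filled points are the brightest probe of a gene. Among the filled points, Ctgf, Rnf182, Prox1 and Fgfr3 lie above 0 on both axes, and 10 of the 16 probes change sign between the orientations.

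The pools of each sex came from 2 arrays. None of the 16 probes had a sex by genotype difference with an adjusted p under 0.05 in limma, nor with an unadjusted p under 0.05, and over all probes 0% had the former and 2.01% the latter. The Ctgf ratio averaged 0.38 in female and 0.39 in male pools, and that of Rnf182 0.47 and 0.36. The largest difference was that of the brightest Ptpn5 probe, at −0.15 in female and 0.07 in male pools, a gap of 0.22 with an SE of 0.12 (adjusted p = 1, limma). Levels did not differ between the sexes at an adjusted p under 0.05 for any of the 16 probes, where 0.0676% of all probes did. Cdh1 came closest, with mean levels of 13.30 in female and 13.11 in male pools (adjusted p = 0.622, limma), and was the only 1 with an unadjusted p under 0.05, as 7.92% of all probes were.

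Of 12 other genes of pillar and Deiters' cells, all tested, 4 rose and 2 fell. Of these, 3 and 1 were past a fold of 1.5. The median of the 12 was 0.10, and 8 had an unadjusted p under 0.05 in limma. Over all genes, 1.16% passed the adjusted p, 0.284% also passed the fold and 7.88% had such an unadjusted p. Tal1, a basic helix-loop-helix transcription factor best known from blood, rose by 1.59 (adjusted p = 3.67e-05, limma). Its chromosomal neighbour Pdzk1ip1 rose by 1.26 (adjusted p = 8.44e-06, limma). By in situ hybridization, the study found both in some Deiters' cells of control and Sox2-Tbx2LOF embryos. Tectb, a component of the tectorial membrane, rose by 0.69 (adjusted p = 0.00326). The study's in situ hybridization at E18.5 showed stronger Tectb in the greater epithelial ridge and the inner compartment. Hey2, a Notch effector of pillar cells, rose by 0.29 (adjusted p = 0.0409, limma), which held in 5 of 15 other settings. Npy, a neuropeptide, fell by 0.69 (adjusted p = 0.000602), and Etv4 fell by the amount given above. Tal1, Pdzk1ip1, Tectb and Npy were named by the study from these arrays, so the counts for this list are no independent evidence. No test of the difference between the lists was made.

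**Figure D4:**
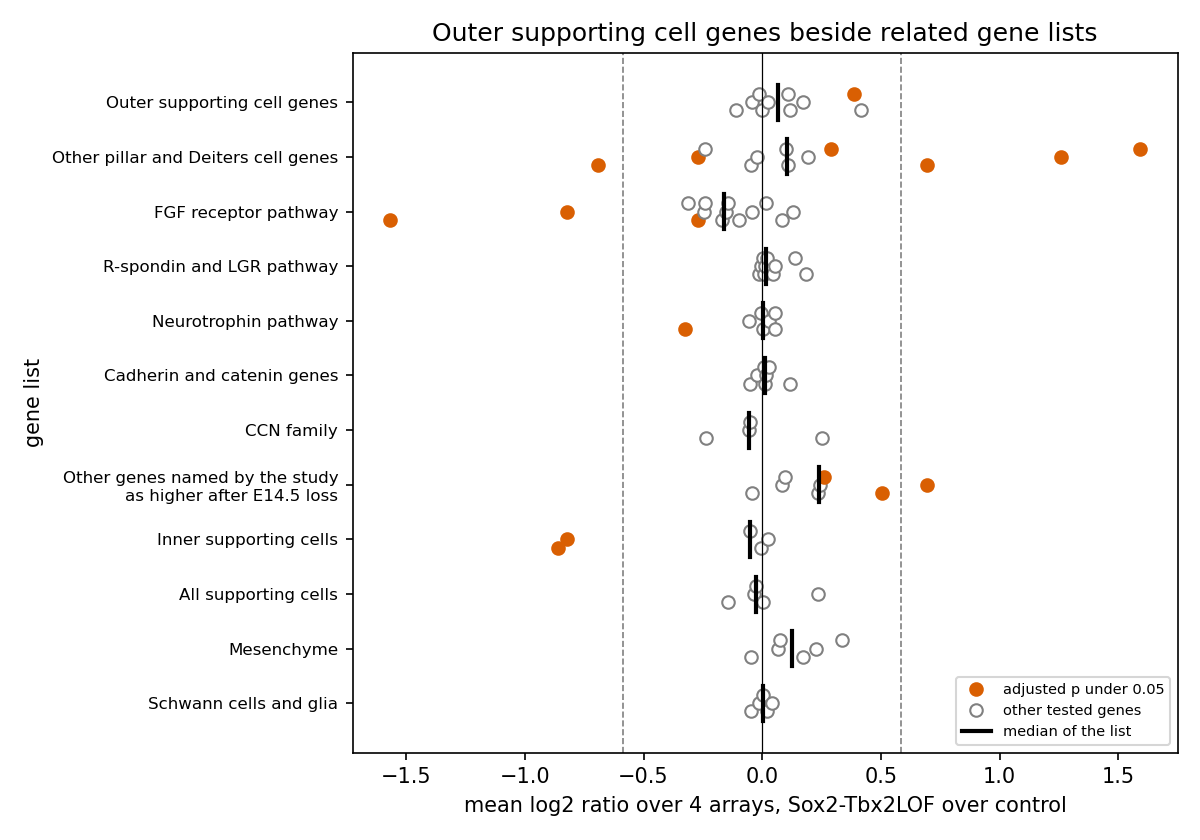
Mean log2 ratio over the 4 arrays (x axis) of every tested gene in 12 gene lists (y axis), with filled points for an adjusted p under 0.05, bars for the median of a list and dashed lines for a fold of 1.5. The outer supporting cell genes range from −0.11 to 0.41 with Ctgf filled, whereas the other pillar and Deiters cell genes spread from −0.69 to 1.59.

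Of 8 other genes that the study lists as higher on its earlier arrays, 5 had an unadjusted p under 0.05 in limma, against 7.88% of all genes. Ratios of 7 were above 0, with a median of 0.24, and 3 rose, against 0.524% of all genes. These were Tectb, Crhr1 at 0.50 (adjusted p = 0.00136) and Nr2e1, a nuclear receptor, at 0.26 (adjusted p = 0.0455, limma, passed in 3 of 15 other settings). Nabp1 was the lowest at −0.04. Of the 10 outer supporting cell genes, 6 were above 0 and 1 rose. Markers of the inner supporting cells, 5 in number, held 2 genes that fell, Otol1 by 0.86 (adjusted p = 0.000101) and Fgf20, while Slc1a3 was the highest at 0.02. Tectb, Crhr1, Otol1 and Fgf20 were named by the study from these same arrays, so these counts are no independent evidence either. Among 5 markers of all supporting cells 0 passed in limma and 2 had an unadjusted p under 0.05, from Gjb2 at −0.14 to Sox2 at 0.23. Among 5 hair cell markers 0 passed in limma and 1 had an unadjusted p under 0.05, from Gfi1 at −0.24 (adjusted p = 0.0639) to Myo6 at 0.10. All of these markers were bright enough to be tested, with mean levels of 14.16 to 14.27 for supporting cells and 11.07 to 11.22 for hair cells over the 2 genotypes.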

How the data were processed

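Organ of Corti RNA of 4 pools per genotype was hybridised as 4 arrays. The deposited scanner files hold spot and local background intensity from Agilent Feature Extraction 10.7.3.1, not normalized, and a log10 ratio of red over green after background and dye correction by the authors' scanner software. The deposited series matrix holds the authors' signed fold score, made by steps not given in the sources used here; its columns correlated at r = 0.937 to 0.953 with the ratios below and have medians of 0 after log2. The study's methods describe the pools as independent and sorted by sex, and n counts them.

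Background was corrected by normexp (limma 3.58.1, R 4.3.3, offset 50), ratios by loess within arrays, which assumes that most genes do not change, and control and outlier-flagged spots (3.23% to 3.56%) were dropped before spots of a probe were averaged. Pools' channel levels were further scaled by Aquantile. Probes well above background on at least 3 of 4 arrays in either genotype were tested (28104 of 39429). limma fitted genotype and dye, with Benjamini-Hochberg adjustment over all tested probes; genes were called at adjusted p under 0.05 and a fold of 1.5, and intervals are 95%. A gene stands by its brightest tested probe. Sex by genotype and sex terms were added in separate fits, the latter with an intraspot correlation of 0.27. The number of arrays limits the precision. Probe positions are mm9 from the array files.

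Members and lists were chosen with earlier results of these data known, and 2 list genes are not reported here. From the lists, genes with adjusted p under 0.05 and each list's highest and lowest ratio are named, all members are given, and the 3 genes most like a member with adjusted p under 0.05. Neurons (5 genes, median 0.03, from Neurod1 at −0.01 to Snap25 at 0.05) and blood and vessels (5 genes, median −0.03, from Hbb-b1 at −0.13 to Cdh5 at 0.12) were further marker lists, of which 0 genes passed in limma and 0 had an unadjusted p under 0.05. Alternatives tried were other offsets, the scanner's ratio, median centring, no dye term, an unpaired fit of levels, kept flags, spot medians, other filters, the series matrix, mean over probes and leaving out each array.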

Additional observations from a re-analysis of the deposited data

Results flagged for a closer look

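Of 48 groups of 4 pools or arrays examined for the 16 tested probes, 5 held a value whose gap to its neighbour took up a larger share of the range of the group than Dixon's critical value for 4 samples, and chance alone picks out about 5% of groups. The Sox2-Tbx2LOF pool of array 1 stood at 7.13 for the dimmer Lgr6 probe, against at most 7.01 in the others. The Sox2-Tbx2LOF pool of array 3 stood at 12.89 for the brighter S100a1 probe, against 12.68 to 12.71. The control pool of array 1 stood at 11.62 for the dimmer S100a1 probe, against 11.51 to 11.52. For Ptpn5, the Sox2-Tbx2LOF pool of array 1 stood at 11.01 at the second probe, against 10.80 to 10.83, and the control pool of array 1 at 9.36 at the third, against 9.20 to 9.21.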

How the results depend on the processing

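Over the 16 tested probes of the outer supporting cell genes, 223 of the values under other settings kept their direction and side of the threshold, 19 changed sign, 2 no longer passed the adjusted p and 1 newly passed it. The count of genes with an adjusted p under 0.05 was 1, and 0 without the dye term and on the series matrix; without an array in turn it was 1 to 2, the second being Rnf182 without array 4. No setting called a gene at 1.5-fold. Over all probes, 70 were called, against 124 with the scanner's log ratio, 1 on the series matrix and 68 to 106 (the latter without array 1) without an array in turn. At adjusted p alone, 277 passed, against 172 with an offset of 100, 116 without the dye term, 125 in the unpaired fit, 1 on the series matrix and 215 to 442 (without array 2) without an array in turn. The cause was not tested.

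The brightest Lgr5 probe turned to 3.312e-05 with an offset of 100, 0.0049 with the scanner's log ratio, 0.0043 with median centring, 0.0037 with spot medians, 0.0020 on the series matrix and 0.022 as a mean over its probes. Spot medians moved Ngfr to 0.021 and Neurod1 to 0.0076, and median centring moved the dimmer Ptpn5 probes to 0.0136 and 0.0138 and Znrf3 to 0.012. Without an array in turn, the dimmer Fgfr3 probe ranged from −0.0398 to 0.110, Ngfr from −0.0726 to 0.0463, Lgr5 from −0.0571 to 0.0559 and the 3 Ptpn5 probes from −0.137 to 0.0505, from −0.0457 to 0.0275 and from −0.0485 to 0.0269. In the same way Znrf3 ranged from −0.141 to 0.111, Cdh2 from −0.111 to 0.0094, Nabp1 from −0.140 to 0.0551, Slc1a3 from −0.0059 to 0.0548, Erbb3 from −0.0119 to 0.0918, Foxd3 from −0.0996 to 0.0023 and Neurod1 from −0.0663 to 0.0379. Of the list genes named, 50 values no longer passed and 4 newly passed. The dimmer Lgr5 and Lgr6 probes were close to background, which limits what their ratios can show.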
